A study of Mus musculus with 6 samples.

Results

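The genes described here are the mouse histone modifying enzymes and sirtuins, taken as every gene whose symbol begins with Kdm, Kmt, Kat, Hdac, Sirt, Setd or Prmt and continues with a digit and, where present, letters. The deposited liver expression table held 69 such genes among 29543 gene IDs. The rule used symbols and no measured value, but it was chosen with earlier results of these data known. Of them, 31 coding genes belonged to the Kmt, Setd, Kat and Prmt families and are called writers. Another 36 coding genes belonged to the Kdm, Hdac and Sirt families and are called erasers. The remaining 2 do not code for protein: Kdm4dl is an annotated pseudogene, and Kdm6bos is antisense to Kdm6b.

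The table covers 6 libraries of mouse liver RNA, 3 from the Sham group, which had a laparotomy alone, and 3 from the IR injury group, in which hepatic ischemia and reperfusion followed the laparotomy. The sources used here do not state the strain, the genotype, the sex, the age or how long ischemia and reperfusion lasted. The labels call the libraries replicate biosamples without naming animals, so the p-values below rest on library-to-library spread, and that spread may be technical. The values are FPKM, fragments scaled by the length of a gene's exons and by the reads of the library, so that levels of different genes are compared per length, and per-library values are given in the order of replicates 1, 2 and 3.

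Reads rebuilt from the FPKM came to between 53622229 and 71752584 per library, of which between 78683 and 117376 fell on the enzyme genes. Marker genes of hepatocytes gave the largest sums among the cell type lists, between 64748 and 67635 FPKM in the Sham and between 53599 and 56225 FPKM in the IR libraries, and 8 of the 11 tested fell and 2 rose, but 2 fell and 2 rose once libraries were scaled to a common median. The summed neutrophil markers were between 11.7 and 13.1 FPKM in Sham and between 154 and 196 FPKM after IR, and 7 of 7 tested rose. Stellate cell and fibroblast markers were between 143 and 152 FPKM in Sham and between 43.6 and 61.1 FPKM after IR, with 10 of 11 tested lower, and Kupffer cell and macrophage markers were between 374 and 384 FPKM and between 218 and 271 FPKM, with 2 of 12 higher and 8 lower. Sinusoidal endothelial markers were between 84.2 and 94.2 FPKM in Sham and between 55.9 and 108 FPKM after IR, with 9 of 12 lower and 2 higher, cholangiocyte markers were between 23.8 and 27.3 FPKM and between 30.5 and 41.3 FPKM, with 3 of 3 tested higher, and lymphocyte markers were between 5.78 and 7.54 FPKM and between 2.52 and 3.61 FPKM, with 0 tested. No marker of these lists was at 0 in all libraries of either group. In whole liver, fewer cells of a type and less RNA per cell cannot be told apart, and the part of these cell type shifts in the values below was not tested.

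Histones are the proteins around which DNA is wound, and chemical marks on their tails help to set how open the chromatin is. Lysine methyltransferases (Kmt and Setd), arginine methyltransferases (Prmt) and lysine acetyltransferases (Kat) add marks, lysine demethylases (Kdm) and histone deacetylases (Hdac) take them off, and several members also act on other proteins. Writers and erasers are sorted here by family name, and the writers Kmt2e and Setd5 were assigned no histone mark. Sirtuins are deacylases that consume NAD, and some of them work in the nucleus, some in the cytosol and some in mitochondria, where they act on metabolic enzymes of the liver.

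After IR, more of the enzyme genes fell than rose on the FPKM scale, and more rose than fell under both other scalings of the libraries tried. A gene was tested where its mean over the 6 libraries was at least 1 FPKM, which 58 of the 69 genes reached, and a change was called where the adjusted p was under 0.05 with limma on log2(FPKM + 1) and Benjamini-Hochberg adjustment over all 10316 genes tested. Of the 58 genes, 11 rose, 29 fell and 18 did not pass. Over all genes, 24.3% were called higher and 53.8% lower, 78.1% in all, against 19.0% and 50% of the enzyme genes, 69.0% in all, so their share of calls was near or under the background. Their median log2 fold change was -0.17, beside -0.23 over all genes, and 33 of 58 lay above the median of all genes. For 45 of the 58 genes the 3 Sham and 3 IR values did not overlap, which held for 80.6% of all genes tested. A log2 fold change of at least 0.5 in size was called upward for 4 enzyme genes and downward for 15, where the shares of all genes were 13.2% and 31.6%.

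The balance of directions depended on how libraries were scaled, since the median gene itself was lower after IR on the FPKM scale. With median-of-ratios scaling, which sets the median of all genes near 0, 24 enzyme genes were called higher and 20 lower, beside 38.2% and 38.1% of all genes. With quantile normalization the counts were 23 and 21, beside 34.1% and 42.7% of all genes. Changes are therefore given below on the FPKM scale with the counts under both other scalings beside them, and log2 fold changes on the log2(FPKM + 1) scale understate the change of genes of low level.

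**Figure D1:**
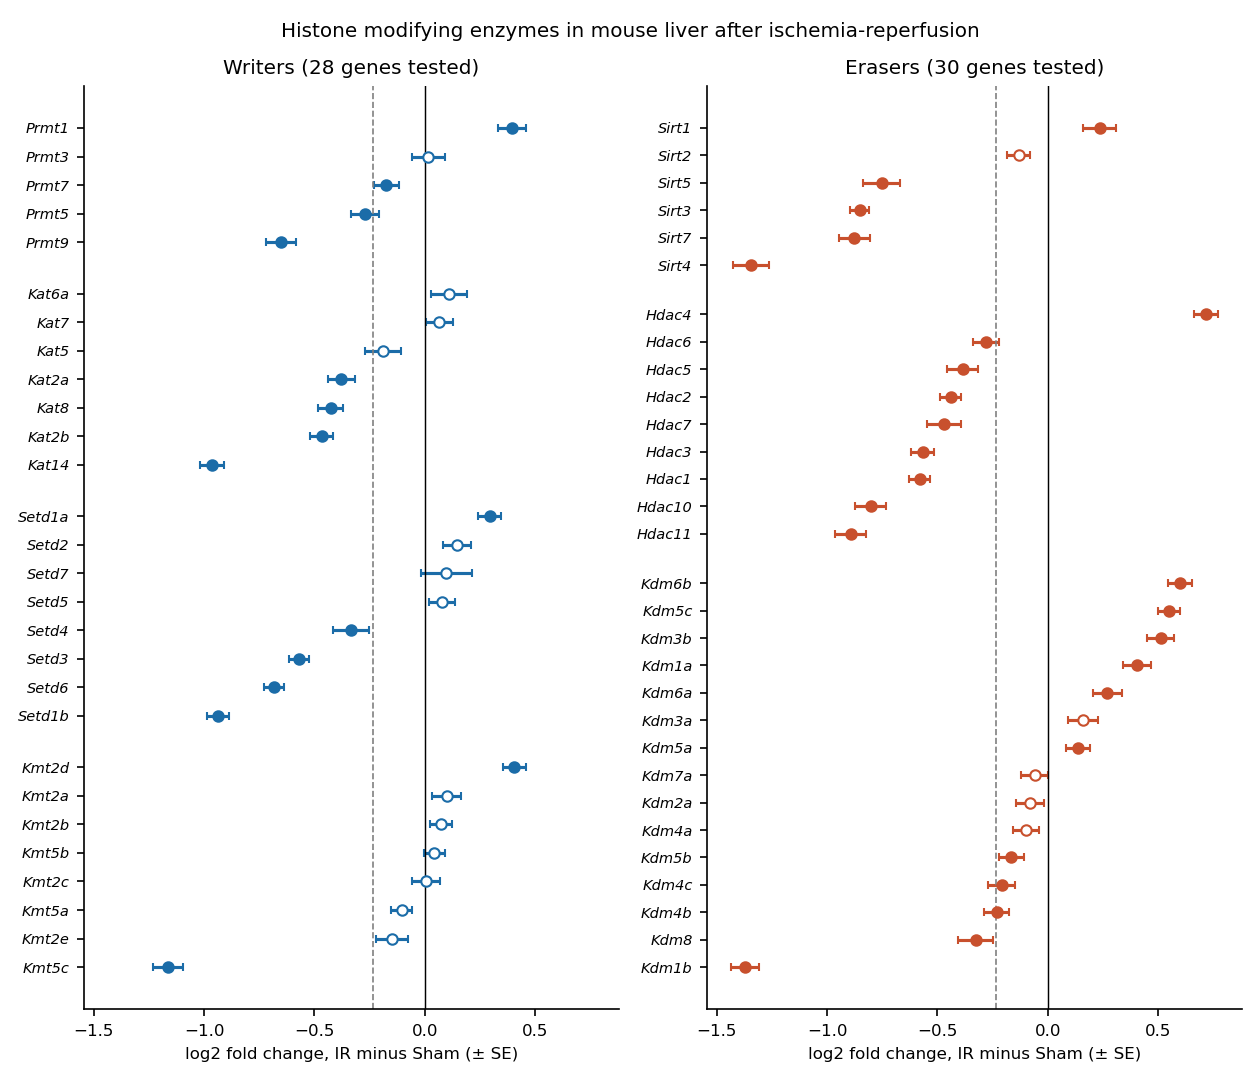
The log2 fold change (IR minus Sham, with its SE from limma, x axis) of the 28 tested writers and 30 tested erasers, grouped by family; filled points passed the test, open points did not, and the dashed line is the median of all genes, -0.23. The largest changes in both directions lie among the erasers, with Hdac4 at 0.72 and Kdm1b at -1.37.

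On the FPKM scale, the summed levels of writers and of erasers were lower after IR by nearly the same share. Summed over all writers the level was 123 ± 2.84 FPKM in Sham and 99.5 ± 3.52 FPKM in IR (SD, n = 3), and the erasers went from 127 ± 1.72 to 103 ± 1.79 FPKM (SD, n = 3). The Sham level was thus 1.23 times the IR level for writers and 1.24 times for erasers. In Sham, the writers' sum included 6.22 FPKM of Kmt2e and Setd5 and 22.6 FPKM of Setd3 and Setd6, whose assigned substrates are not histones. The erasers' sum included 14.7 FPKM of mitochondrial sirtuins and 10.3 FPKM of the cytosolic Sirt2. These sums follow family names and are no measure of a balance of histone marks. Median-of-ratios scaling divides each library by a factor, which was between 1.09 and 1.13 in Sham and between 0.876 and 0.924 in IR. That lowers the Sham sums and raises the IR sums, so the fall of both sums is shown on the FPKM scale alone. The family sums below are likewise given on the FPKM scale alone. Within a library, the writers' sum divided by the erasers' sum was 0.954, 1.00 and 0.947 in Sham and 0.951, 0.961 and 1.00 in IR, and these ratios overlapped. Gene by gene, 3 writers rose, 12 fell and 13 did not pass, with a median log2 fold change of -0.13, and 8 erasers rose, 17 fell and 5 did not pass, with a median of -0.22. Without Sham replicate 2 the writers called higher were 5. Median-of-ratios scaling called 14 writers higher and 8 lower, and 10 erasers higher and 12 lower, beside 38.2% and 38.1% of all genes. Quantile normalization called 13 writers higher and 9 lower, and the same counts as median-of-ratios scaling for the erasers, beside 34.1% and 42.7% of all genes. On the FPKM scale, 10.7% of the writers rose and 42.9% fell. Of the erasers 26.7% rose and 56.7% fell on that scale, beside 24.3% and 53.8% of all genes. No test of the difference between writers and erasers was made.

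**Figure D2:**
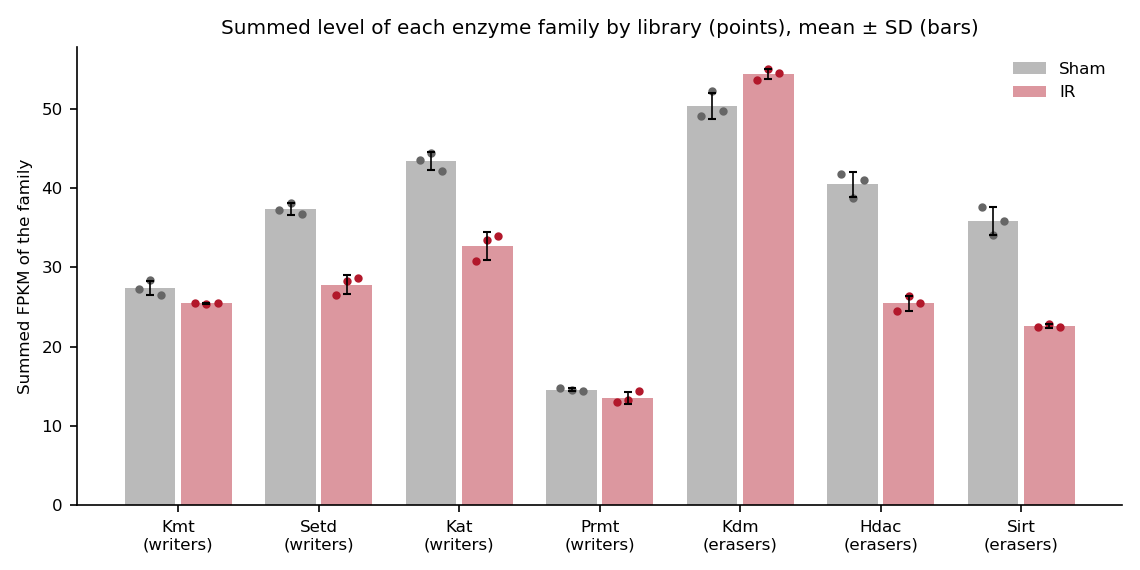
Summed FPKM of the coding genes of each family (y axis, from 0) in the 3 Sham and 3 IR libraries (points), with the group mean (bar) and SD. Without rescaling of the libraries, the Kdm sum is the one family total whose IR mean lies above the Sham mean, 54.4 against 50.4 FPKM. The Hdac and Sirt sums go from 40.5 to 25.5 and from 35.9 to 22.6 FPKM. Which family totals lie above their Sham mean depends on the scaling.

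Among the lysine demethylases, the eraser family that removes methyl groups, 6 genes rose, 5 fell and 4 did not pass, and the family's summed level went from 50.4 ± 1.67 to 54.4 ± 0.656 FPKM (SD, n = 3). Of all genes, 24.3% rose and 53.8% fell on the FPKM scale. Median-of-ratios scaling called 7 higher and 1 lower, beside 38.2% and 38.1% of all genes. Quantile normalization called 8 higher and 1 lower, beside 34.1% and 42.7% of all genes. Kdm6b (ENSMUSG00000018476, chromosome 11, 69398508 to 69413675, minus strand, mm10), which removes methyl groups from H3K27, a mark of repressed genes, was listed at 4.43, 4.27 and 4.32 FPKM in Sham and at 6.82, 7.59 and 6.89 FPKM in IR. Every IR value exceeded every Sham value, a log2 fold change of 0.60 (SE 0.0530, limma adjusted p = 2.33e-05). Kdm6a, the X-linked enzyme of the same mark, was lower in level and rose by 0.27 on the log2 scale (limma adjusted p = 0.00651), from 1.55 ± 0.162 to 2.07 ± 0.131 FPKM (SD, n = 3), also without overlap. Together the H3K27 demethylases went from 5.89 ± 0.159 to 9.17 ± 0.554 FPKM (SD, n = 3).

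Kdm5c (ENSMUSG00000025332, chromosome X, 152233020 to 152274535, plus strand), an X-linked demethylase of H3K4, a mark found at active promoters, was the most abundant of its family. It stood at 8.26, 9.12 and 8.63 FPKM in Sham and at 12.97, 13.1 and 13.4 FPKM in IR, with no overlap and a log2 fold change of 0.55 (limma adjusted p = 2.46e-05). Its paralogs moved little: Kdm5a rose from 2.11 ± 0.137 to 2.42 ± 0.0660 FPKM (SD, n = 3; log2 fold change 0.14, limma adjusted p = 0.0467) and Kdm5b fell from 1.48 ± 0.0910 to 1.21 ± 0.0443 FPKM (SD, n = 3; -0.17, limma adjusted p = 0.0263), the latter turning to 0.0077 with median-of-ratios scaling and 0.11 with quantile normalization. In single libraries Kdm5a read 1.95, 2.21 and 2.15 FPKM in Sham and 2.38, 2.39 and 2.49 FPKM in IR, and Kdm5b read 1.38, 1.55 and 1.51 FPKM in Sham and 1.251, 1.16 and 1.21 FPKM in IR. Both calls were weak: Kdm5a was lost without any single library other than Sham replicate 2 (limma adjusted p of 0.151 without Sham replicate 1, 0.0852 without Sham replicate 3, and 0.062, 0.0854 and 0.118 without IR replicates 1, 2 and 3), with the robust fit (0.0502) and with no filter (0.0748). Kdm5b was lost without Sham replicates 2 and 3 (0.0764 and 0.0834) and without IR replicates 2 and 3 (0.0813 and 0.0554), and both were lost with the replicate number as a block (0.0693 for Kdm5a and 0.059 for Kdm5b). The Y-linked Kdm5d had a mean under the 1 FPKM filter, with 1.27 ± 0.0435 FPKM in Sham and 0.457 ± 0.0415 FPKM in IR (SD, n = 3).

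The H3K9 demethylase Kdm3b was at 2.35, 2.50 and 2.42 FPKM in Sham and at 3.53, 4.01 and 4.14 FPKM in IR. The groups did not overlap, and its log2 fold change was 0.51 (limma adjusted p = 0.000131), although 24.6% of its exon bases are shared with a lincRNA on the opposite strand and the sources used here do not state how strand was handled. Its paralog Kdm3a, at 2.77 ± 0.278 and 3.21 ± 0.192 FPKM (SD, n = 3), did not pass (0.16, limma adjusted p = 0.0623), and was called higher without Sham replicate 2 at 0.22, with median-of-ratios scaling at 0.39, with quantile normalization at 0.36 and with voom on rebuilt reads at 0.21. Kdm4b, Kdm4c and Kdm8 fell by 0.23, 0.21 and 0.33 on the log2 scale, and these 3 calls were lost with median-of-ratios scaling, under which Kdm4b stood at -0.0024, Kdm4c at -0.030 and Kdm8 at -0.17. Kdm4c turned to 0.062 with quantile normalization. Kdm2a, Kdm4a and Kdm7a did not pass and lay between -0.10 and -0.060, and all 3 turned positive under both other scalings, while Kdm2a passed without IR replicate 1 at -0.14.

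The flavin-dependent demethylases of H3K4, Kdm1a (LSD1) and Kdm1b (LSD2), went in opposite directions. Kdm1a (ENSMUSG00000036940, chromosome 4, 136550540 to 136602723, minus strand) was at 3.03, 3.16 and 2.64 FPKM in Sham and at 4.18, 4.13 and 4.35 FPKM in IR, a log2 fold change of 0.41 (limma adjusted p = 0.000528). Kdm1b (ENSMUSG00000038080, chromosome 13, 47043499 to 47085279, plus strand) was at 4.34, 4.78 and 4.79 FPKM in Sham and at 1.20, 1.28 and 1.06 FPKM in IR. It was 3.94-fold lower after IR, with a log2 fold change of -1.37 (SE 0.0617, limma adjusted p = 6.86e-07), the largest fall in log2 fold change among the 58 genes tested. Neither gene's groups overlapped, so that Kdm1b was the higher of the pair in every Sham library and Kdm1a in every IR library. Of the exon bases of Kdm1b, 9.19% are shared with Dek on the opposite strand.

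The histone deacetylases, which remove acetyl groups and are counted in classes by sequence, fell nearly throughout. Of the 9 tested, 8 fell and 1 rose, beside 53.8% of all genes lower and 24.3% higher. Their median log2 fold change was -0.47, beside -0.23 over all genes. Both other scalings kept 7 lower and 1 higher, with Hdac6 no longer called. Of all genes, 38.1% fell and 38.2% rose with median-of-ratios scaling, and 42.7% fell and 34.1% rose with quantile normalization. The family sum was 40.5 ± 1.55 FPKM in Sham and 25.5 ± 0.946 FPKM in IR (SD, n = 3), 1.59-fold lower. In class I, the catalytic subunits of the nuclear corepressor complexes, Hdac1 was at 6.04, 5.69 and 6.12 FPKM in Sham and at 3.72, 3.55 and 3.68 FPKM in IR (-0.58, limma adjusted p = 1.59e-05). Hdac3, the most abundant deacetylase when averaged over the 6 libraries and the partner of the NCoR corepressors in liver, was at 8.39, 8.03 and 8.43 FPKM in Sham and at 5.22, 5.02 and 5.58 FPKM in IR (-0.57, limma adjusted p = 2.71e-05). For both genes all IR libraries lay under all Sham libraries. Hdac2 went from 4.51 ± 0.0209 to 3.07 ± 0.140 FPKM (SD, n = 3; -0.44, limma adjusted p = 7.47e-05), and the class I sum was 19.8 ± 0.484 FPKM in Sham and 12.5 ± 0.186 FPKM in IR (SD, n = 3), 1.59-fold lower.

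Hdac4 (ENSMUSG00000026313, chromosome 1, 91928779 to 92195699, minus strand), a class IIa enzyme that shuttles between cytoplasm and nucleus, was the exception in its family. It read 0.603, 0.623 and 0.665 FPKM in Sham and 1.63, 1.73 and 1.67 FPKM in IR, and was 2.67-fold higher after IR with no overlap (log2 fold change 0.72, SE 0.0533, limma adjusted p = 9e-06). This was the largest rise in log2 fold change among the 58 genes tested, at a low level, and 22.4% of its exon bases are shared with a lincRNA on the opposite strand. Its class IIa paralog Hdac5 was at 3.75, 3.41 and 3.57 FPKM in Sham and at 2.20, 2.75 and 2.58 FPKM in IR (-0.38, limma adjusted p = 0.00137). Hdac7, the class IIa enzyme known from endothelial cells, went from 1.70 ± 0.0612 to 0.956 ± 0.176 FPKM (SD, n = 3; -0.47, limma adjusted p = 0.000731). The class IIa sum was 6.07 ± 0.122 FPKM in Sham and 5.20 ± 0.505 FPKM in IR (SD, n = 3).

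Hdac11, the lone class IV enzyme and a defatty-acylase, was at 9.09, 7.81 and 8.55 FPKM in Sham and at 3.98, 4.49 and 3.84 FPKM in IR. It was 2.07-fold lower (-0.89, limma adjusted p = 1.32e-05), and 15.4% of its exon bases are shared with an unclassified transcript on the opposite strand. Hdac10, a class IIb enzyme that deacetylates polyamines, was at 3.19, 2.79 and 3.15 FPKM in Sham and at 1.14, 1.43 and 1.39 FPKM in IR (-0.80, limma adjusted p = 2.31e-05). The groups of both genes were well apart. Hdac6, the cytosolic deacetylase of tubulin, fell less, by 0.28 on the log2 scale (limma adjusted p = 0.00279). That call was lost with median-of-ratios scaling at -0.058 and with quantile normalization at -0.072.

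Of the 6 sirtuins tested, 4 fell, 1 rose and 1 did not pass, beside 53.8% of all genes lower, with a median log2 fold change of -0.80 beside -0.23 over all genes. The family sum went from 35.9 ± 1.80 to 22.6 ± 0.240 FPKM (SD, n = 3). Median-of-ratios scaling called 2 higher and 4 lower, beside 38.2% and 38.1% of all genes. Quantile normalization called 1 higher and 4 lower, beside 34.1% and 42.7% of all genes. All 3 mitochondrial sirtuins fell, and their sum went from 14.7 ± 0.614 to 6.13 ± 0.238 FPKM (SD, n = 3), 2.40-fold lower. Sirt4 (ENSMUSG00000029524, chromosome 5, 115478010 to 115484725, minus strand), a regulator of amino acid catabolism, was at 4.25, 3.60 and 3.77 FPKM in Sham and at 0.727, 1.03 and 1.00 FPKM in IR. It was 4.21-fold lower on the FPKM scale (log2 fold change -1.35, SE 0.0830, limma adjusted p = 3.27e-06), and the highest IR library lay well under the lowest Sham library.

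Sirt3, the main deacetylase of mitochondrial proteins, was at 9.07, 8.99 and 9.24 FPKM in Sham and at 4.56, 4.73 and 4.498 FPKM in IR (-0.85, SE 0.0437, limma adjusted p = 1.27e-06). Its 3 values within each group differed little, and the Sham mean was 1.98 times the IR mean. Of the exon bases of Sirt3, 5.73% are shared with Psmd13, which averaged 15.0 FPKM, and 7.0% with Ric8a, both on the opposite strand. Sirt5, which removes succinyl and malonyl groups, was at 1.93, 1.44 and 1.82 FPKM in Sham and at 0.580, 0.567 and 0.702 FPKM in IR (-0.75, limma adjusted p = 7.68e-05). Sirt7, a nucleolar sirtuin, was at 7.74, 6.49 and 7.24 FPKM in Sham and at 3.20, 3.55 and 3.55 FPKM in IR (-0.88, limma adjusted p = 1.28e-05). Neither gene's groups overlapped.

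Sirt1, the nuclear sirtuin that acts on transcription factors of liver metabolism, was at 2.43, 2.45 and 2.48 FPKM in Sham and at 3.37, 3.26 and 2.62 FPKM in IR. The 3 Sham values were close together and IR replicate 3 stood just above them. The log2 fold change came to 0.24 (SE 0.0763, limma adjusted p = 0.0227). The call was lost without Sham replicate 1, 2 or 3 (limma adjusted p = 0.0604, 0.0549 and 0.0528), without IR replicate 1 or 2 (0.0663 and 0.0756) and with no filter (0.054). Sirt2, the cytosolic member and the most abundant, was at 10.9, 9.88 and 10.02 FPKM in Sham and at 9.51, 9.03 and 9.35 FPKM in IR. It missed the threshold (-0.13, limma adjusted p = 0.0510), and its alternative calls went both ways. It was called lower without Sham replicate 2 at -0.16, with voom on rebuilt reads at -0.15 and among genes of at least 5 FPKM at -0.13, and called higher with median-of-ratios scaling at 0.14 (limma adjusted p = 0.0394).

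**Figure D3:**
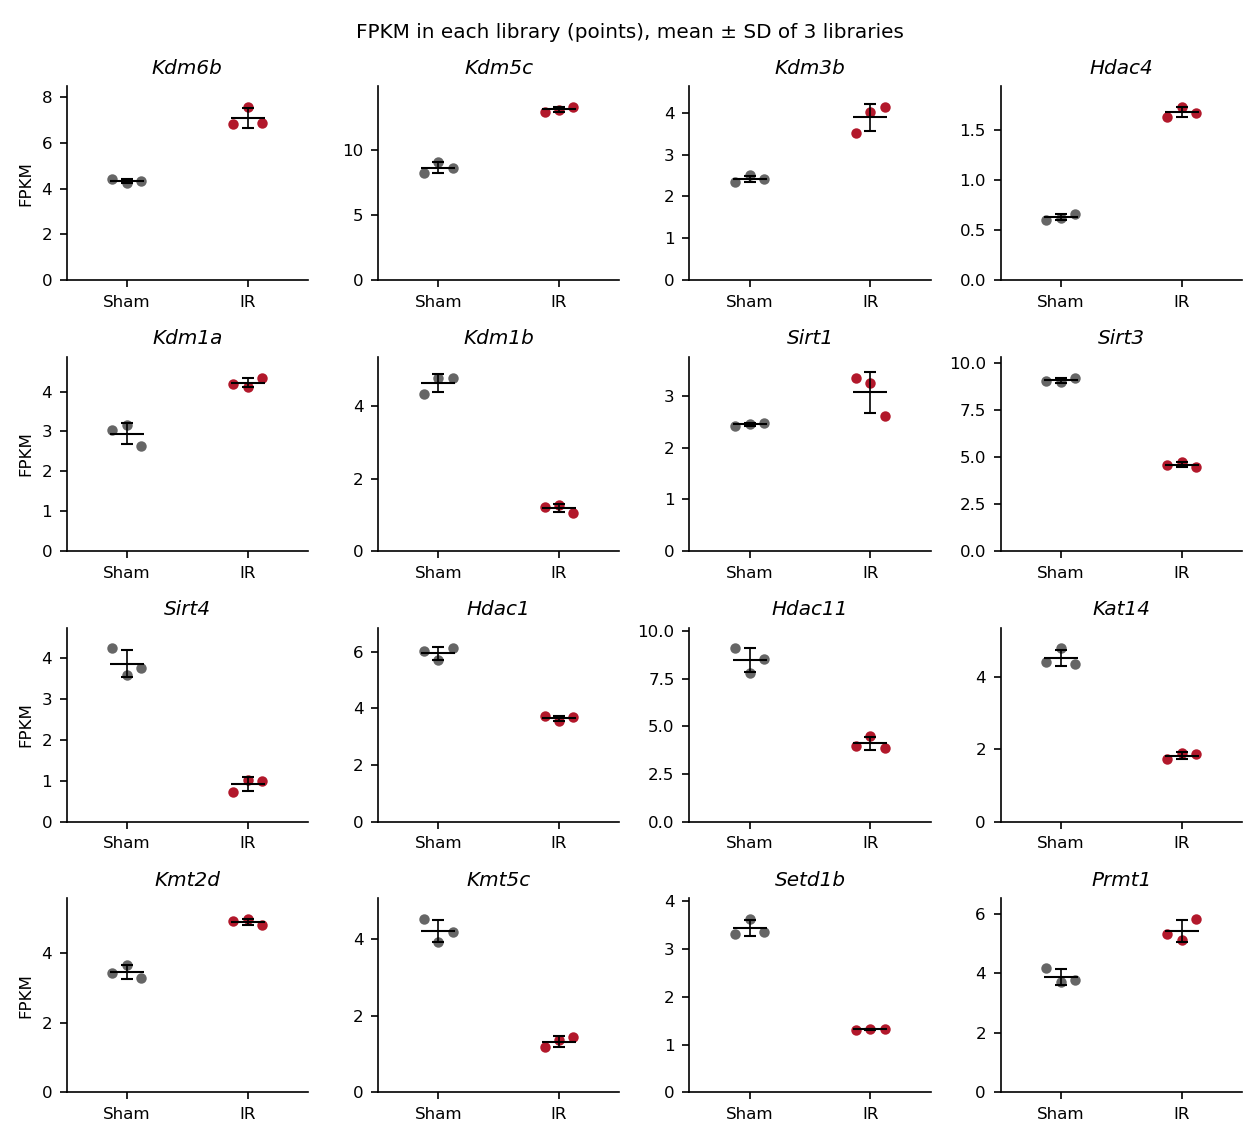
FPKM (y axis, from 0 in each panel) of 16 enzyme genes in each Sham and IR library (points), with the mean and SD of 3 libraries. In each panel the Sham and IR values do not overlap; Kdm1b, Sirt4 and Kmt5c show the lowest IR levels relative to Sham, and Hdac4 the highest.

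Among the writers, the Kmt family of lysine methyltransferases had 1 gene higher, 1 lower and 6 not passing on the FPKM scale, with a median log2 fold change of 0.025, and a summed level of 27.4 ± 0.934 FPKM in Sham and 25.5 ± 0.0879 FPKM in IR (SD, n = 3). All genes had a median of -0.23, and 7 of its 8 members lay above that median. Median-of-ratios scaling called 6 higher and 1 lower, beside 38.2% and 38.1% of all genes. Quantile normalization called 5 higher and 1 lower, beside 34.1% and 42.7% of all genes. On the FPKM scale 24.3% of all genes were called higher and 53.8% lower. Kmt2d (ENSMUSG00000048154, chromosome 15, 98831669 to 98871204, minus strand), which places H3K4 methyl marks at enhancers, rose from 3.45 ± 0.191 to 4.89 ± 0.0845 FPKM (SD, n = 3; 0.41, limma adjusted p = 0.000161). Its single values were 3.41, 3.65 and 3.27 FPKM in Sham and 4.90, 4.97 and 4.80 FPKM in IR, without overlap. The paralogs Kmt2a, Kmt2b and Kmt2c did not pass, at 0.10, 0.074 and 0.0060, and all 3 were called higher under both other scalings, and Kmt2a also without Sham replicate 2 at 0.16.

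The enzymes of H4K20 methylation, a mark of compact chromatin, differed among themselves. Kmt5a, which adds the first methyl group and was the most abundant of the family, was at 7.57, 7.54 and 7.14 FPKM in Sham and at 6.72, 6.70 and 7.05 FPKM in IR, and missed the threshold (-0.11, limma adjusted p = 0.0722). Its value turned to 0.16 with median-of-ratios scaling and to 0.054 with quantile normalization. Kmt5c (ENSMUSG00000059851, chromosome 7, 4740115 to 4747514, plus strand), which adds the further methyl groups, was at 4.53, 3.94 and 4.19 FPKM in Sham and at 1.18, 1.36 and 1.45 FPKM in IR. It was 3.18-fold lower (-1.16, SE 0.0677, limma adjusted p = 2.36e-06), the largest fall in log2 fold change among the writers. Kmt5b, which carries out the same reaction, was at 1.88, 1.94 and 2.03 FPKM in Sham and at 2.05, 2.03 and 2.05 FPKM in IR, and missed the threshold (0.044, limma adjusted p = 0.434).

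Of the 8 Setd genes, 1 rose, 4 fell and 3 did not pass, beside 24.3% of all genes higher and 53.8% lower. Their median was -0.13, and median-of-ratios scaling and quantile normalization each called 4 higher and 3 lower. Of all genes, 38.2% rose and 38.1% fell with the former, and 34.1% rose and 42.7% fell with the latter. Setd1a and Setd1b, the catalytic subunits of alternative COMPASS complexes that methylate H3K4, moved apart. Setd1a was at 1.74, 1.78 and 1.67 FPKM in Sham and at 2.24, 2.49 and 2.32 FPKM in IR (0.29, limma adjusted p = 0.0013). Setd1b (ENSMUSG00000038384, chromosome 5, 123142193 to 123168629, plus strand) was at 3.33, 3.63 and 3.37 FPKM in Sham and at 1.30, 1.34 and 1.32 FPKM in IR (-0.94, SE 0.0510, limma adjusted p = 1.73e-06), 2.61-fold lower. Neither gene's groups overlapped, but 51.9% of the exon bases of Setd1a are shared with another annotated coding gene on the same strand, so its level is uncertain.

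Setd3, which methylates a histidine of actin, was the most abundant of the Setd genes, at 15.0, 15.3 and 14.8 FPKM in Sham and 9.35, 9.93 and 10.1 FPKM in IR (-0.57, limma adjusted p = 1.43e-05). Setd6, known for methylating the NF-kappaB subunit RelA, was at 7.56, 7.53 and 7.70 FPKM in Sham and at 4.35, 4.51 and 4.19 FPKM in IR (-0.68, limma adjusted p = 4.99e-06). Neither substrate is a histone, and neither gene's groups overlapped. Setd4 fell by 0.33 on the log2 scale, a call lost with median-of-ratios scaling at -0.17 and with quantile normalization at -0.061. Setd2, the methyltransferase of H3K36, had 3.68 ± 0.331 FPKM in Sham and 4.17 ± 0.145 FPKM in IR (SD, n = 3) and did not pass (0.14, limma adjusted p = 0.0684), and was called higher without Sham replicate 2 at 0.19, with median-of-ratios scaling at 0.38, with quantile normalization at 0.33 and with voom on rebuilt reads at 0.18. Setd7 did not pass at 0.10 and was called higher without IR replicate 1 at 0.24, with median-of-ratios scaling at 0.29 and with quantile normalization at 0.34.

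No gene of the Kat family of lysine acetyltransferases was called higher on the FPKM scale. Of the 7 tested, 4 fell and 3 did not pass, and the median was -0.38, beside 24.3% of all genes higher and 53.8% lower. Crebbp and Ep300, acetyltransferases under other names, rose and are given with the other lists below. Median-of-ratios scaling called 2 higher and 3 lower, beside 38.2% and 38.1% of all genes. Quantile normalization called 2 higher and 4 lower, beside 34.1% and 42.7% of all genes. The family sum went from 43.4 ± 1.13 to 32.7 ± 1.74 FPKM (SD, n = 3), 1.33-fold lower. Kat2b (PCAF; ENSMUSG00000000708, chromosome 17, 53566861 to 53672720, plus strand), which acetylates histone H3 and transcription factors, had the highest mean level of all 69 genes, at 16.9, 17.4 and 16.6 FPKM in Sham and 11.2, 12.4 and 12.4 FPKM in IR (-0.47, limma adjusted p = 9.43e-05). Its paralog Kat2a (GCN5) went from 5.54 ± 0.187 to 4.04 ± 0.313 FPKM (SD, n = 3; -0.38), a call lost with median-of-ratios scaling at -0.13. Kat14, a subunit of the ATAC complex, was at 4.41, 4.79 and 4.37 FPKM in Sham and at 1.72, 1.89 and 1.87 FPKM in IR. It was 2.47-fold lower without overlap (-0.97, SE 0.0549, limma adjusted p = 2.12e-06), with 14.8% of its exon bases shared with Pet117 on the same strand.

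Among the MYST acetyltransferases, Kat8, which acetylates H4K16, fell from 5.69 ± 0.401 to 3.97 ± 0.0925 FPKM (SD, n = 3; -0.43, limma adjusted p = 0.000227). Kat5 (TIP60), Kat6a (MOZ) and Kat7 (HBO1) did not pass at -0.19, 0.11 and 0.067, and the latter 2 were called higher under both other scalings. The value of Kat5 passed with voom on rebuilt reads at -0.27, without Sham replicate 3 at -0.24 and without IR replicate 3 at -0.25, and turned to 0.028 and 0.025 with median-of-ratios scaling and quantile normalization. Of its exon bases, 12.1% are shared with Rnaseh2c on the opposite strand.

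Of the 5 arginine methyltransferases of the Prmt family tested, 1 rose, 3 fell and 1 did not pass, beside 24.3% of all genes higher and 53.8% lower. Both other scalings called 2 higher and 1 lower. Of all genes, 38.2% rose and 38.1% fell with median-of-ratios scaling, and 34.1% rose and 42.7% fell with quantile normalization. Prmt1 (ENSMUSG00000109324, chromosome 7, 44975989 to 44986568, minus strand), the main enzyme of asymmetric arginine dimethylation and the most abundant of the family, was at 4.18, 3.69 and 3.76 FPKM in Sham and at 5.33, 5.10 and 5.82 FPKM in IR. Every IR value exceeded every Sham value (0.40, SE 0.0636, limma adjusted p = 0.000672). Prmt9, a symmetric dimethyltransferase known for a splicing factor substrate, was at 2.02, 2.18 and 2.49 FPKM in Sham and at 0.982, 1.08 and 1.10 FPKM in IR (-0.65, limma adjusted p = 6.08e-05). Prmt5, the main symmetric enzyme, went from 3.94 ± 0.205 to 3.09 ± 0.261 FPKM (SD, n = 3; -0.27, limma adjusted p = 0.00505), a call lost with median-of-ratios scaling at -0.038 and with quantile normalization at -0.080. Prmt7, which adds a single methyl group, fell by 0.17 on the log2 scale (limma adjusted p = 0.0254). That call was lost without Sham replicate 1 (0.0899) and without IR replicate 3 (0.0725), and the value turned to 0.013 and 0.085 under median-of-ratios scaling and quantile normalization.

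The 11 genes under the filter were of low level. Just under it lay Kat6b at a mean of 0.999 FPKM, Sirt6 at 0.966 and Prmt6 at 0.911, and just above it Kdm8 at 1.03, Hdac4 at 1.16, Sirt5 at 1.17 and Setd4 at 1.23. Hdac8, the remaining class I deacetylase, had 1.03 ± 0.0981 FPKM in Sham and 0.477 ± 0.0644 FPKM in IR (SD, n = 3). Kdm2b, a subunit of a polycomb complex, had 0.643 ± 0.0410 and 0.245 ± 0.0166 FPKM, and Sirt6, a chromatin-bound sirtuin, had 1.26 ± 0.0617 and 0.668 ± 0.0912 FPKM. With no filter, where 44.5% of 27520 genes were called, Hdac8, Hdac9, Kdm2b, Kdm5d and Sirt6 were called lower by limma and the other 6 were not called. Prmt2, Hdac9 and Kdm4d were listed at means of 0.202, 0.104 and 0.0072 FPKM, Kdm6bos at 0.586, and Kdm4dl at 0 in all 6 libraries. Among the tested genes, 6 had a group mean under 1 FPKM: Hdac4 in Sham, and Hdac7, Kdm8, Setd4, Sirt4 and Sirt5 in IR.

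A ratio of paralogs taken within a library does not change when the library is divided by 1 factor, as in median-of-ratios scaling. Quantile normalization can change it, and the ratios here were taken on FPKM. Of 16 listed pairs, 13 had both genes above the filter, and 5 of these had log2 fold changes of opposite sign. The log2 ratio of Kdm1a to Kdm1b was -0.66 ± 0.18 in Sham and 1.84 ± 0.18 in IR (SD, n = 3), a shift of 2.50. That of Hdac4 to Hdac5 went from -2.50 to -0.57, that of Setd1a to Setd1b from -0.99 to 0.83, and that of Kmt5b to Kmt5c from -1.11 to 0.62. The lower-level member of the pair in Sham was thus the higher after IR for Kdm1a, Setd1a and Kmt5b, while Hdac4 stayed under Hdac5 in every library. The ratio of Kdm5a to Kdm5b shifted by 0.49, and those of Kdm3a to Kdm3b, Kmt2c to Kmt2d and Kdm6a to Kdm6b by -0.46, -0.49 and -0.29. In 10 of the 13 pairs the Sham and IR ratios did not overlap, giving p = 0.1 in an exact two-sided permutation test, the smallest that 3 against 3 libraries allow, or 0.13 after adjustment over the 13 pairs. No pair can therefore pass 0.05 in this test. Among single genes tested, 80.6% had groups that did not overlap, and the share over other gene pairs was not computed. The ratios of Kmt2a to Kmt2b, Kat2a to Kat2b and Kdm4a to Kdm4b shifted by 0.064, 0.043 and 0.19, with exact p = 0.4, 0.4 and 0.3.

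**Figure D4:**
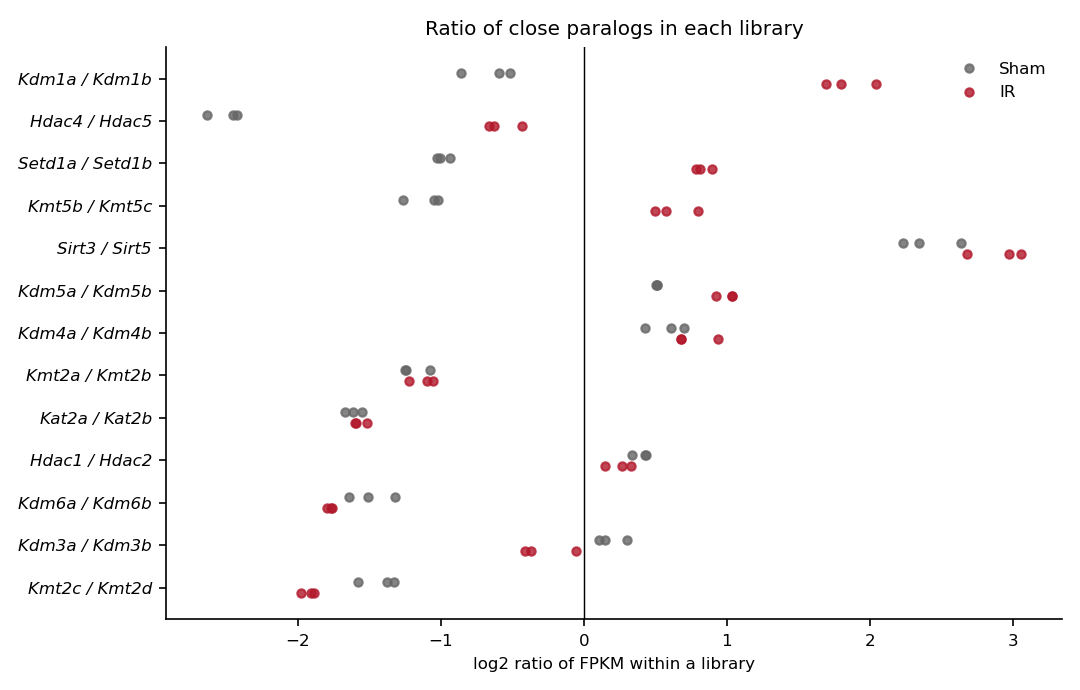
The log2 ratio of FPKM of 13 paralog pairs within each Sham and IR library (x axis, 1 point per library), ordered by the shift between groups. Kdm1a/Kdm1b, Hdac4/Hdac5, Setd1a/Setd1b and Kmt5b/Kmt5c show the 4 largest shifts, from 2.50 to 1.74 on the log2 scale.

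The log2 fold change of the enzyme genes went with their exon length. Across the 58 genes, the Spearman correlation of the log2 fold change with the summed exon length was 0.55, against 0.066 across 10273 tested genes with a length. It was 0.50 among the 28 writers and 0.60 among the 30 erasers. Of the 11 enzyme genes under 4000 bases, 1 rose and 9 fell, of the 27 from 4000 to under 8000 bases 5 rose and 17 fell, and of the 20 of 8000 bases and over 5 rose, 3 fell and 12 did not pass. Among all genes tested, 21.4% rose and 55.2% fell under 4000 bases, and 26.3% and 55.5% from 4000 to under 8000 bases. At 8000 bases and over, 30% rose and 45.4% fell. The medians of the log2 fold change in these classes were -0.43, -0.28 and 0.088 for the enzyme genes and -0.28, -0.24 and -0.10 for all genes. The correlation with GC content was -0.13 across the enzyme genes and -0.086 across all genes. The points share the same 6 libraries and families of related genes, so these correlations are descriptions, and the part of length in the changes was not tested.

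**Figure D5:**
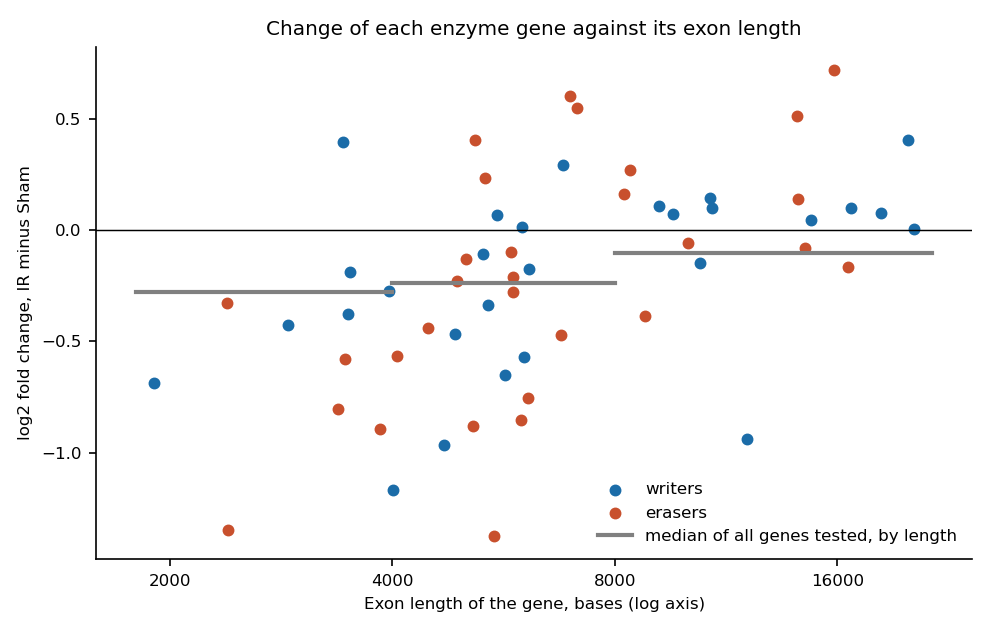
The log2 fold change (IR minus Sham, y axis) of the tested writers and erasers against exon length in bases (log x axis); grey lines give the median of all genes tested in 3 length classes. Enzyme genes under 4000 bases have a median of -0.43 and those of 8000 bases and over a median of 0.088.

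Promoter sequences are shown for Kdm1a and Kdm1b and for Hdac4 and Hdac5, the paralog pairs with the largest shifts in ratio, and for Sirt1 and Sirt4, sirtuins of opposite direction, so that a reader can compare their starts. RefSeq promoters of GRCm38.p6, 250 bases before to 50 bases after a gene's annotated start, matched 55 of the 69 genes and gave 75 sequences, 5′ to 3′ on the gene's strand. The RefSeq start need not be the start used in these livers. Capitals mark any match, on either strand, to 6 motifs. The AP-1 motif is TGA and TCA with any base between them, and the cAMP response element (CRE) is TGACGTCA. The E-box is CACGTG, and it contains the core of the hypoxia response element, which is ACGTG. The GC box is GGGCGG. The CCAAT box bears its letters as its name. The regions are chr4:136602674-136602973 on the minus strand for Kdm1a, chr13:47043249-47043548 on the plus strand for Kdm1b, chr1:92180292-92180591 and chr11:102230123-102230422 on the minus strand for Hdac4 and Hdac5, and chr10:63338986-63339285 and chr5:115484248-115484547 on the minus strand for Sirt1 and Sirt4.
Kdm1a: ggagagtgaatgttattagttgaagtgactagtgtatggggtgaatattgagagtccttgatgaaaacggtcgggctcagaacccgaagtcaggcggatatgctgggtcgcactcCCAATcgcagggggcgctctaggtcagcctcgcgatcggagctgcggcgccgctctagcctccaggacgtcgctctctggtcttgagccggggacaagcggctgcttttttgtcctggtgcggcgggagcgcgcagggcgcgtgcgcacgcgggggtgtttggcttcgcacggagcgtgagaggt
Kdm1b: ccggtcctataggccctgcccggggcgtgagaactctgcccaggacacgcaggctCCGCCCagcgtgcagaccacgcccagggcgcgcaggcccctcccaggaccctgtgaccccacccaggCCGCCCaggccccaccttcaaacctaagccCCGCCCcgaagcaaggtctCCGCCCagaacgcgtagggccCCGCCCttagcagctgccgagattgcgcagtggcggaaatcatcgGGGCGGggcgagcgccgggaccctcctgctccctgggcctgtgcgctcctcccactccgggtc
Hdac4: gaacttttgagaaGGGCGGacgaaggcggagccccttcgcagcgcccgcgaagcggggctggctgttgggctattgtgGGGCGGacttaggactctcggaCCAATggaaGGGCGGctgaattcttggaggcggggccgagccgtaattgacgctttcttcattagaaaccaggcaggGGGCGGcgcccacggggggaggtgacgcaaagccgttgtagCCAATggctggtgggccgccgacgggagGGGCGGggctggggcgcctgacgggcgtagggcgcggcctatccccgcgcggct
Hdac5: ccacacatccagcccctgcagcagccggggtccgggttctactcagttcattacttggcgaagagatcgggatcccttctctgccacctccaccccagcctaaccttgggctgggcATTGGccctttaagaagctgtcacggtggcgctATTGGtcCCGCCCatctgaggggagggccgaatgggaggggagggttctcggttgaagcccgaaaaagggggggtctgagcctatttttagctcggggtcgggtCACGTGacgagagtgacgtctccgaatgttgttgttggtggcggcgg
Sirt1: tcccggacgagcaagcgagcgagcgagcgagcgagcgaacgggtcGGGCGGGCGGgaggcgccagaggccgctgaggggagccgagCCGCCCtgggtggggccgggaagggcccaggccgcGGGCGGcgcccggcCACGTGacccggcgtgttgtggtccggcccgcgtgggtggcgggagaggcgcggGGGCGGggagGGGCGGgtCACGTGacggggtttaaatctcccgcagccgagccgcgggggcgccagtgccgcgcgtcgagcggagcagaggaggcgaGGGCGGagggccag
Sirt4: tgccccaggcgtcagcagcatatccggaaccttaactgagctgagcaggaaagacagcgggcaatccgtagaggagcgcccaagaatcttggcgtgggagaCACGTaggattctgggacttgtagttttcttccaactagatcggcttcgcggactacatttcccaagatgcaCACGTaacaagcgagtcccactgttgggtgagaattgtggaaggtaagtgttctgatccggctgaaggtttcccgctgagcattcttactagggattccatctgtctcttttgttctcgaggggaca

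These windows held different letters. The Kdm1a window held 1 CCAAT box and 0 GC boxes, and the Kdm1b window 6 GC boxes. The Hdac4 window held 5 GC boxes and 2 CCAAT boxes, and the Hdac5 window 1 E-box, 1 GC box and 2 CCAAT boxes. Sirt1 had 2 E-boxes and 7 GC boxes in its window, and Sirt4 had 2 matches to ACGTG. Over all 75 enzyme promoters the GC box was found in 61.3%, against 35.7% of 32851 promoters of all genes, and the median number of CpG dinucleotides was 21 against 7. The promoters of all genes were not limited to genes expressed in these livers. The 75 windows came from 55 genes, and some windows of the same gene overlap, such as those of Kat6b. The AP-1 letters were found in 10.7% against 7.81%, the CRE in 1.33% against 1.79%, the E-box in 9.33% against 7.15%, the hypoxia response core in 24% against 19.6%, and the CCAAT box in 42.7% against 37.4%. A match is a description of letters and no evidence of binding.

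Enzymes of the same reactions outside the named families, and the partners of the enzymes, were counted from lists. The counts stand beside 24.3% of all genes higher and 53.8% lower, or 38.2% and 38.1% with median-of-ratios scaling, and nothing particular to a list is read from them. Of 8 tested demethylases under other names, 4 rose and 3 fell, with 5 higher and 1 lower under median-of-ratios scaling. Jmjd1c, a relative of Kdm3a, was at 1.62, 1.85 and 1.57 FPKM in Sham and at 18.5, 17.5 and 17.7 FPKM in IR (2.82, limma adjusted p = 2.70e-08), Phf8 rose by 0.84 and Jmjd6 by 0.57. The change of Jmjd1c is larger than that of any tested enzyme gene above. Of 15 other methyltransferases, 5 rose and 8 fell (6 and 6 with median-of-ratios scaling). Dot1l, the H3K79 methyltransferase, rose from 4.30 ± 0.163 to 14.9 ± 0.731 FPKM (SD, n = 3; 1.58, limma adjusted p = 1.81e-07), Prdm2 rose by 0.73, and Setdb1, which methylates H3K9, fell by 0.73. Of 10 other acetyltransferases, 2 rose and 2 fell (7 and 2 with median-of-ratios scaling), with Naa60 and Naa40, which acetylate protein N-termini, at -0.96 and -0.50 and the coactivator Crebbp at 0.36. The other gene of that list that rose was Ep300, at 0.18 (limma adjusted p = 0.0497).

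Subunits of the enzyme complexes went both ways. COMPASS subunits, partners of the H3K4 methyltransferases, gave 3 higher and 5 lower of 12 tested (6 and 5 with median-of-ratios scaling), with Psip1 at -0.72, Dpy30 at -0.65 and Ash2l at -0.56. SAGA and ATAC subunits, partners of Kat2a, Kat2b and Kat14, gave 2 higher and 9 lower of 18 (7 and 5), with Tada2a at -0.97, Tada2b at -0.52 and Supt20 at -0.47. Those of NuA4, MSL, NSL and MOZ, partners of the MYST acetyltransferases, gave 11 higher and 6 lower of 24 (17 and 2), with Jade1 at -1.28, Morf4l2 at 0.74 and Kansl1 at 0.69. Subunits of the deacetylase and demethylase complexes NuRD, SIN3, CoREST, NCoR and MiDAC gave 9 higher and 19 lower of 35 (13 and 12), with Chd3 at -0.93, Zmym3 at -0.88 and Ing1 at -0.87. Noncatalytic subunits of PRC2, the writer of the mark that Kdm6a and Kdm6b remove, gave 3 higher and 2 lower of 7 (4 and 1), with Aebp2 at 0.66, Jarid2 at -0.52 and Epop at 0.40. Its catalytic subunits Ezh1 and Ezh2 were counted among the other methyltransferases above. Ezh1 stood at -0.66 (limma adjusted p = 1.53e-05) and Ezh2 at 0.32 (limma adjusted p = 0.00119). Readers of acetyl-lysine gave 5 higher and 9 lower of 16 (7 and 4), with Brd3 at -1.27, Baz1a at 1.20 and Brd2 at 1.13.

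The genes of cofactor supply stand beside the same shares of all genes, 53.8% lower and 24.3% higher, and a median of -0.23. Of 19 tested genes of NAD synthesis and use, the cofactor of sirtuins, 4 rose and 15 fell, with a median log2 fold change of -0.87, and median-of-ratios scaling called 5 higher and 13 lower. The summed level of this list was between 1029 and 1061 FPKM in Sham and between 1029 and 1050 FPKM in IR. Nmrk1, a nicotinamide riboside kinase, fell from 17.6 ± 0.688 to 2.77 ± 0.310 FPKM (SD, n = 3; -2.31, limma adjusted p = 1.13e-07), Kynu of the kynurenine route was at -1.36, and Nnmt, which methylates nicotinamide, rose by 1.67. Of 15 genes supplying S-adenosylmethionine, acetyl-CoA or the ketoglutarate that demethylases need, 2 rose and 9 fell, with a median of -0.84, and median-of-ratios scaling called 4 higher and 8 lower. Idh2, the mitochondrial isocitrate dehydrogenase, was at -1.26, the acetyl-CoA synthetase Acss2 at -1.12 and D2hgdh, which clears hydroxyglutarate, at -1.06. The genes that rose, named after their values were seen, were the S-adenosylmethionine synthetases Mat1a, at 1204 ± 17.3 FPKM in Sham and 2006 ± 42.6 FPKM in IR (SD, n = 3; 0.74, limma adjusted p = 1.33e-06), and Mat2a, at 22.4 ± 0.649 and 34.6 ± 5.53 FPKM (0.59, limma adjusted p = 0.0013). The summed level of that list was between 3167 and 3268 FPKM in Sham and between 3280 and 3404 FPKM in IR.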

How the data were processed

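The authors deposited 1 table of FPKM values, with 1 column for each of the 6 libraries, and per the submitters' processing notes the build was mm10. The aligner, the counter, the annotation and the handling of strand were not given in any source used here. Per the labels' protocols, total RNA was made into libraries with a SMARTER mRNA-Seq kit. Groups and replicate numbers were taken from the titles. Lengths and coordinates came from GENCODE M21, built on that assembly, in which 28977 of the 29543 IDs were found. FPKM times exon length and library total gave whole reads, within 0.05, in all libraries for 98.3% of 27072 listed genes and for 67 of the 69 enzyme genes (not Kat6a or Hdac9), and the lowest such value of a tested enzyme gene was 91 reads. Over the tested enzyme genes the median coefficient of variation was 5.17% in Sham and 5.97% in IR.

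Genes averaging at least 1 FPKM were fitted with limma 3.58.1 in R 4.3.3 (empirical Bayes with trend, two-sided) on log2(FPKM + 1), with all 6 libraries and no covariate, and Benjamini-Hochberg adjustment over all genes at 0.05. On simulated data (10079 genes, coefficient of variation 5%), 66% of 1.25-fold, 88% of 1.5-fold, 96% of 2-fold and 92% of 4-fold changes were called, with 12 false calls of 183. There 50 genes were changed at each size and the others not at all. In the data 78.1% of genes were called and the median gene was lower, so these rates need not carry over. The paralog ratios, the counts and the promoter letters were computed in Python 3.11.15 with pandas 2.3.3, numpy 2.4.6 and scipy 1.17.1, and figures were drawn with matplotlib 3.10.9. The fit was repeated with pseudocounts of 0.1 and 0.5, no filter, a mean of at least 5 FPKM, median-of-ratios scaling, quantile normalization, a robust fit, voom on rebuilt reads, the replicate block and each library left out. Per-library values were given for called enzyme genes with a log2 fold change of at least 0.5 in size, the most abundant gene of each family and paralog pairs of opposite sign. By the same rule at most 3 genes were named per other list, and Ep300, Ezh1, Ezh2, Mat1a and Mat2a were named beyond it. Kdm3a, Kmt2d, Sirt1 and other genes with values given beyond that rule were named after their values were seen. The enzyme genes, the lists and the tests were chosen with earlier results of these data known.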

Additional observations from a re-analysis of the deposited data

How the results depend on the processing

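Of the 40 enzyme genes called, 29 kept their direction and their call under every alternative that tested them. Of all genes, 12245 of 27520 tested were called with no filter (8843 lower). With a mean of at least 5 FPKM, where fewer genes are tested, 3932 of 4892 were called (1359 higher and 2573 lower). Median-of-ratios scaling called 3939 of all genes higher. With a mean of at least 5 FPKM, 10 of the 11 enzyme genes tested were called (2 higher, 8 lower), 9 of them among the 40 and the other being Sirt2. The 10 were 3 writers (0 higher, 3 lower) and 7 erasers (2 higher, 5 lower). Enzyme genes called higher were 24 with median-of-ratios scaling and 23 with quantile normalization, of which 14 and 13 were writers. The shares of all genes called higher were 38.2% and 34.1%. Leaving out each library in turn gave between 36 and 42 called enzyme genes (9 to 13 higher, 27 to 31 lower), 14 to 17 writers (3 to 5 higher, 11 to 13 lower) and 21 to 25 erasers (6 to 8 higher, 15 to 19 lower). The same fits called between 7494 and 7939 of all genes (2281 to 2448 higher, 5107 to 5590 lower), with between 10215 and 10443 tested. Nothing particular to the enzyme genes is read from these counts. Under median-of-ratios scaling and quantile normalization, in that order, the log2 fold change turned positive for Kat5 (0.028, 0.025), Kdm2a (0.16, 0.11), Kdm4a (0.15, 0.076), Kdm5b (0.0077, 0.11), Kdm7a (0.14, 0.18), Kmt2e (0.083, 0.049), Kmt5a (0.16, 0.054) and Prmt7 (0.013, 0.085). It did so for Kdm4c with quantile normalization (0.062) and for Sirt2 with median-of-ratios scaling (0.14). With single libraries left out, Kmt2c ranged from -0.040 (without Sham replicate 1; -0.011 without IR replicate 2) to 0.044 and Prmt3 from -0.049 (without IR replicate 3) to 0.079. Where scaling turned a value, the shift of the median of all genes, from -0.23 to 0.0027 or to -0.059, is of the scaling's own construction, and the other causes were not tested. The replicate numbers did not pair the libraries, as same-numbered libraries had correlations of deviations of -0.039, 0.012 and -0.10, and with the replicate block 38 enzyme genes were called (10 higher, 28 lower), Kdm5a and Kdm5b being lost. Read depth is known only as rebuilt, and genes under 1 FPKM are the least precise.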
